A study of Homo sapiens with 7 samples.

Results

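The general transcription factors and Mediator are the machinery that loads RNA polymerases onto promoters, and Myc occupancy was examined at the genes encoding them. The set holds 93 of the 20052 protein-coding genes in the RefSeq table: 26 symbols beginning with GTF2 or GTF3, 37 beginning with TAF and a digit, and 30 beginning with MED and a digit. Membership was set by symbol, in a choice made with earlier results of these data known. A gene was counted as carrying a Myc site when the summit of a deposited peak lay inside it or within 1 kb of it. GTF2H2C_2, a copy of a TFIIH gene, could not be placed on the hg38 chromosomes from that table and was left out, so that 92 genes were followed (25 GTF, 37 TAF and 30 MED), of 19862 protein-coding genes placed in the same way.

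The sites come from CUT&RUN, in which an antibody directs a nuclease to cut out the DNA around a chromatin protein, in HT29, an established human colon cancer cell line. All libraries came from cells given oleic acid, a fatty acid, for 6 h in serum-free medium: 3 libraries with the Myc antibody, 3 titled IgG and 1 input. The labels of the IgG libraries name the same Myc antibody, and the titles were followed here. No library from cells without oleic acid was analysed here, so nothing below is a response to the fatty acid. The data are 1 list of Myc peaks that names no library and has 1 value per peak, so that no value below has a replicate error and no difference could be tested against the spread between libraries.

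Transcription by RNA polymerase II starts when TFIID, made of the TATA-binding protein and the TAFs, recognises the core promoter and TFIIA, TFIIB, TFIIE, TFIIF and TFIIH assemble with the polymerase around it. Mediator, the MED complex, bridges this assembly and activators bound elsewhere, and is built from head, middle and tail modules on the MED14 scaffold, with a kinase module that joins reversibly. Other members serve the other polymerases: the SL1 complex of TAF1A, TAF1B, TAF1C and TAF1D directs RNA polymerase I to ribosomal RNA genes, and TFIIIA and TFIIIC recognise the promoters of 5S ribosomal RNA and tRNA genes for RNA polymerase III. Myc binds DNA as a dimer with Max, preferring the E-box CACGTG, and is known for occupying the promoters of a large part of the active genes of a tumour cell.

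The promoters of 8 members are shown because the results turn on them: the GTF genes with the highest Myc signal, and TAF and MED genes at the high end, followed by TAF11, which had no site, and MED13L, which had an E-box and no site at its start. Each is the RefSeq window of 300 bases, the 250 before the annotated start and the 50 from it onwards, on GRCh38.p14, printed 5′ to 3′ on the strand of the gene, with the canonical E-box CACGTG in capitals where it occurs.
GTF2H1, chr11:18322317-18322616, plus strand: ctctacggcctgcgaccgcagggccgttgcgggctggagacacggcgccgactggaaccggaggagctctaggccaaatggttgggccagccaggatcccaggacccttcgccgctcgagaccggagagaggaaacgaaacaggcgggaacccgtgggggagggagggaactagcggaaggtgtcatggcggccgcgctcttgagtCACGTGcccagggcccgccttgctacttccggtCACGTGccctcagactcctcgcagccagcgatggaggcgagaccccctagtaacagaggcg
GTF3C2, chr2:27356715-27357014, minus strand: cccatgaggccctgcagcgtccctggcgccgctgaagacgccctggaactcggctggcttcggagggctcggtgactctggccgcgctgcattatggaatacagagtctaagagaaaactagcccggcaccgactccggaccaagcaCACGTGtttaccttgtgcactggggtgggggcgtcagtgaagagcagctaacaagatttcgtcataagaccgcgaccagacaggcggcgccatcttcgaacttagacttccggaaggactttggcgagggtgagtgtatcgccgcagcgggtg
TAF9, chr5:69369471-69369770, minus strand: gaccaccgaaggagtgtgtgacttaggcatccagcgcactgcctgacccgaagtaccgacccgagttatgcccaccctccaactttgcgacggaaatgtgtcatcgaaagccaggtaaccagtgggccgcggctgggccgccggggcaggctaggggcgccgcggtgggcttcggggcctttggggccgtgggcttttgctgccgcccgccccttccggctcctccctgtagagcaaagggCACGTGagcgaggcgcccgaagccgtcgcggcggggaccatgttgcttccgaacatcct
TAF1B, chr2:9843224-9843523, plus strand: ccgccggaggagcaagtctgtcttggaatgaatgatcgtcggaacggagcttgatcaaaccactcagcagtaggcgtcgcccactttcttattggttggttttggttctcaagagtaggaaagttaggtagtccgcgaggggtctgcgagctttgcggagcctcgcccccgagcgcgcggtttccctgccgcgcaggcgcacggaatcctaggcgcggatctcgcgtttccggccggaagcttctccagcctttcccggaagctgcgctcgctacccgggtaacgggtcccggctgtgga
MED19, chr11:57712166-57712465, minus strand: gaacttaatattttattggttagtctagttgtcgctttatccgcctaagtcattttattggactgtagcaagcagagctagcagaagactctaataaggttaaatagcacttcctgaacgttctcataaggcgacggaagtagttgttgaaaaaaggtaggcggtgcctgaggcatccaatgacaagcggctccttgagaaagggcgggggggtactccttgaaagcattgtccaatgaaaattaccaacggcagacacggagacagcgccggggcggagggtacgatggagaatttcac
MED20, chr6:41920894-41921193, minus strand: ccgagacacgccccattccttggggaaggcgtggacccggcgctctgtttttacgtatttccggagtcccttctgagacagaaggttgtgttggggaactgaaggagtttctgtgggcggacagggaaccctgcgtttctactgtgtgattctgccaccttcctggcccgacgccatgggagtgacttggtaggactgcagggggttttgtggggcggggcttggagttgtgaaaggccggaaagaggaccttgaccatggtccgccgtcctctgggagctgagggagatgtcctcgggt
TAF11, chr6:34888022-34888321, minus strand: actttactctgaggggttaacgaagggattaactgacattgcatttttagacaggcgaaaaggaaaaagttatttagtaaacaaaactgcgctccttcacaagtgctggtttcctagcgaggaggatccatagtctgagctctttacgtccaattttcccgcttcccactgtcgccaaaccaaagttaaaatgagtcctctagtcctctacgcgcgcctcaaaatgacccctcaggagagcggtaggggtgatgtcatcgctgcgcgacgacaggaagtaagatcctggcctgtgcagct
MED13L, chr12:116277644-116277943, minus strand: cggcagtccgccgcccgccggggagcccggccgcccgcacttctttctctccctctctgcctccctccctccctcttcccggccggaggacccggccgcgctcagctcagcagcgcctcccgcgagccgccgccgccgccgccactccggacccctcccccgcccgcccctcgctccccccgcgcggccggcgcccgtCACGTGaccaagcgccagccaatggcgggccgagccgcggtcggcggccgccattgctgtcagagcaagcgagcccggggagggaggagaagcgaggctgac
GTF2H1 carried 2 copies of CACGTG in this window, beginning 44 and 11 bp upstream of the start, and GTF3C2, TAF9 and MED13L carried 1 each. The windows of TAF1B, MED19, MED20 and TAF11 held none.

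Nearly every GTF and MED gene carried a Myc site, whereas many TAF genes did not. A summit lay in or within 1 kb of 24 of 25 GTF genes (96.0%, Wilson 95% interval 80.5 to 99.3), 21 of 37 TAF genes (56.8%, 40.9 to 71.3) and 29 of 30 MED genes (96.7%, 83.3 to 99.4). Over all members the count was 74 of 92 (80.4%), against a background of 69.3% of all placed protein-coding genes. Most TAF genes without a site belonged to 1 family: all 13 TAF11L genes, short and near-identical relatives of TAF11 clustered on chromosome 5, had none, the nearest summit being between 191972 and 287539 bp away. How reads that match several places were handled is not given in the sources used here, so the absence of peaks at such copies is uncertain. A further count left out, as near-identical copies, GTF2H2, GTF2H2C, GTF2I, GTF2IRD2, GTF2IRD2B, TAF1L and the TAF11L genes. Without them, the shares were 19 of 20 GTF genes (95%), 21 of 23 TAF genes (91.3%) and 29 of 30 MED genes. The background kept the copies of other gene families, so it is not matched to these shares. As a difference, GTF minus TAF was 39.2 percentage points over all placed members (Newcombe 95% interval 17.9 to 55.4) and 3.70 points without the copies. TAF minus MED was -39.9 points (-56.0 to -20.2) and -5.36 without the copies, and GTF minus MED was -0.667 points (-16.5 to 13.1). These intervals treat genes as a sample and say nothing of the spread between libraries.

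Besides the TAF11L genes, 5 members had no site. TAF11, a histone-fold subunit of TFIID, had its nearest summit 1937 bp away, while its partner TAF13 had a site of low fold, given below. MED6, a head subunit of Mediator, was the MED gene without a site, and its nearest summit was 40458 bp away. The others are GTF2A1L, TAF1L and TAF7L, relatives of TFIIA and TFIID genes known for expression in germ cells, with the nearest summit 177352, 25158 and 55815 bp away in that order.

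Signal strength is given as the authors' fold enrichment for the strongest peak of a gene. This is the fragment pileup at the summit over the control level, with 1 added to each. The lowest control level in the list was 5.09, and several members sat at that value. The 95% interval beside a fold is the exact Poisson interval of the pileup with the control held fixed, and covers counting error only. The strongest sites of members rested on 22 to 269 fragments. The median strongest fold was 9.28 at GTF genes (7.81 to 12.0, binomial 95% interval of the median over genes), 10.7 at TAF genes (7.65 to 13.5) and 7.30 at MED genes (5.74 to 8.95). Over all 74 members with a site it was 8.24, against 7.84 over the 13757 protein-coding genes with one. Counting only summits within 1 kb of an annotated start, these medians were 8.03 and 8.04. MED genes therefore sat slightly below the median of all genes with a site and GTF and TAF genes above it: 17 of 24 GTF, 15 of 21 TAF and 10 of 29 MED genes exceeded it. On the log2 scale of the median fold, GTF minus TAF was -0.20 (half-width 0.51), GTF minus MED was 0.35 (0.44) and TAF minus MED was 0.55 (0.52). Each half-width is the root of the summed squares of the log2 half-widths of both median intervals. It is a rough guide whose coverage was not checked, so it does not set TAF minus MED apart from 0. Without peaks wider than 2 kb, GTF minus MED was 0.02 and TAF minus MED 0.20, and without peaks shared with another gene TAF minus MED was 0.20, all within these half-widths. A strongest fold of 10 or more was found at 11 GTF, 11 TAF and 7 MED genes, 29 of the 92, beside a background of 22.3% of all placed genes and 32.2% of genes with a site. The MED median was above that of all genes under 1 of 12 alternative settings, the one without peaks wider than 2 kb.

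**Figure D1:**
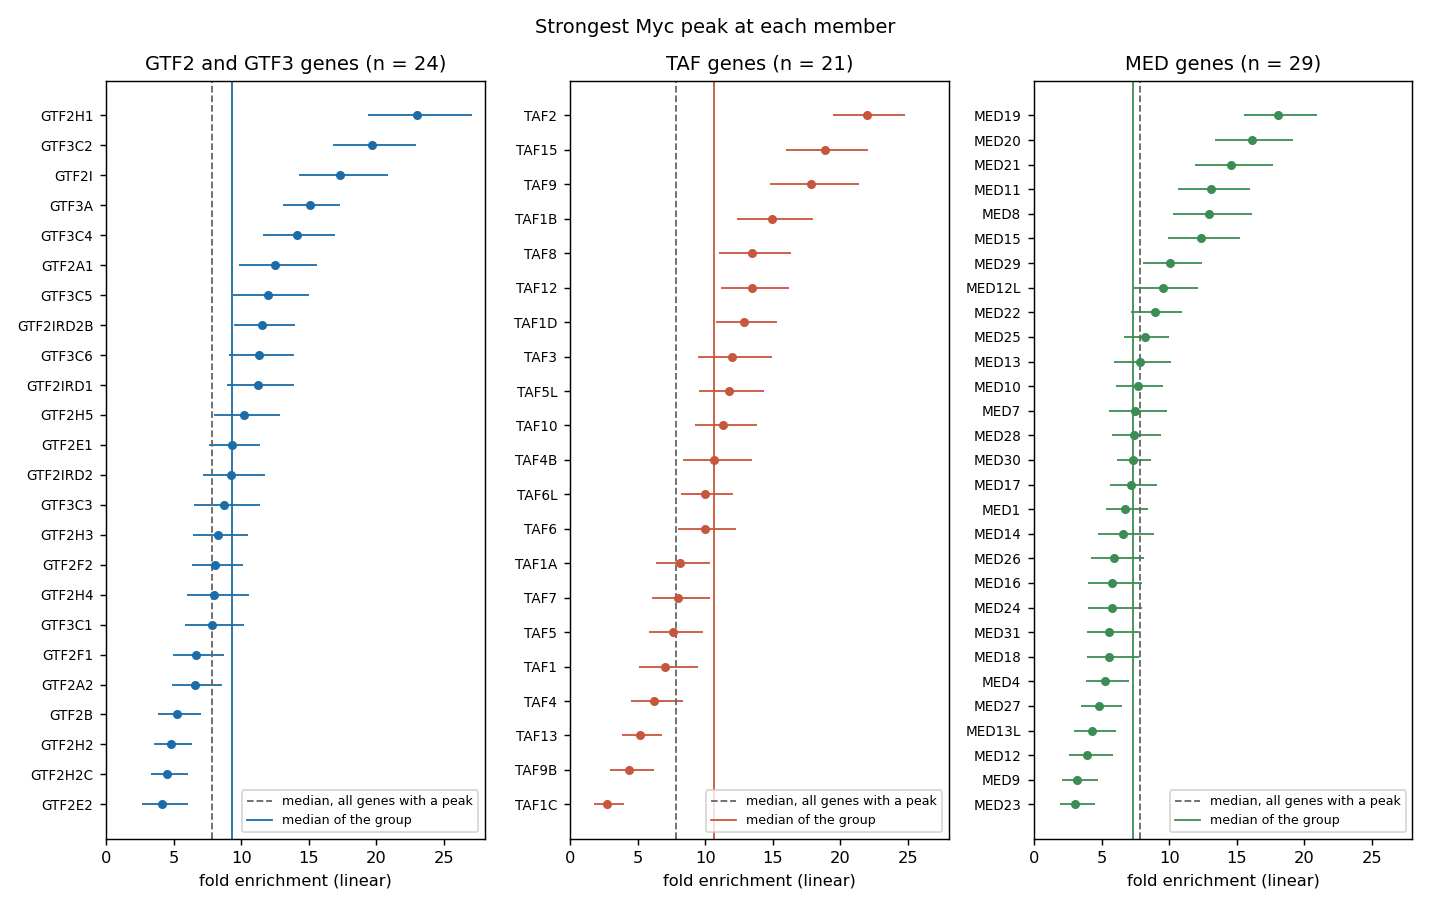
Fold enrichment (linear axis) of the strongest Myc peak at each member with a site, for GTF, TAF and MED genes; bars are exact Poisson 95% intervals of the pileup, the coloured line is the median of the group and the dashed line the median of all genes with a site (7.84). The medians are 9.28, 10.7 and 7.30, and each group spans from below 5 to above 18.

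Among the RNA polymerase II factors of the GTF group, the strongest site lay at GTF2H1, which encodes a core subunit of TFIIH. Its summit stood over 139 fragments against a control level of 5.09, the lowest in the list, a fold of 22.98 (19.3 to 27.1). The summit lay at position -157 relative to the annotated start, counting negative upstream, inside the window printed above. The peak, chr11:18321183-18323671, had its summit within 1 kb of the start of HPS5 as well. All 6 placed TFIIH genes of the set had a site, with a median fold of 8.15, and the lowest were GTF2H2C at 4.52 (3.29 to 6.07) and GTF2H2 at 4.78 (3.52 to 6.34), which are near-identical copies of each other and therefore uncertain. At GTF2H4 the strongest peak, with a fold of 8.01, lay beyond the far end of the gene and in or within 1 kb of VARS2, while the peak at its own start had a fold of 4.41.

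The remaining polymerase II factors ranged from 4.10 to 12.5. GTF2A1, the large TFIIA subunit, had a fold of 12.5 (9.85 to 15.6), and GTF2B, the only TFIIB gene, had 5.24 (3.81 to 7.04). TFIIE was uneven: GTF2E1 had 9.34 (7.59 to 11.4) at a site shared with RABL3, and GTF2E2 had 4.10 (2.69 to 6.02), the lowest of the GTF genes, with 24 fragments over a control level of 5.09. The TFIIF genes GTF2F1 and GTF2F2 had 6.62 and 8.07, values whose intervals overlapped.

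The RNA polymerase III factors had a higher median than the set as a whole. All 6 TFIIIC genes had a site within 1 kb of the start, with a median fold of 11.6 and a range from 7.81 at GTF3C1 to 19.7 at GTF3C2 (16.8 to 22.9). GTF3C2 held 162 fragments over a control level of 7.28 with its summit at position 142, downstream of the start. GTF3C4, which encodes a subunit with reported acetyltransferase activity, had 14.1 (11.6 to 17.0) at a peak shared with DDX31. GTF3A, the gene of the zinc-finger protein TFIIIA, had 15.1 (13.1 to 17.3). Its summit, at position 1573, lay inside the gene and outside 1 kb of the start. The peak itself, chr13:27423907-27427459, was broad and spanned the annotated start. Its control level of 12.4 was also raised against the median control of 5.89 over genes with a site. The intervals of GTF3C2 and GTF3C4, next to each other in the order of TFIIIC genes, still overlapped narrowly.

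TFII-I, a signal-regulated DNA-binding factor, and its relatives sit together on chromosome 7. GTF2I had a fold of 17.3 (14.2 to 20.8) with the summit 79 bp inside its lower-coordinate end, and the family median was 11.4 over 4 genes. GTF2I, GTF2IRD2 and GTF2IRD2B share near-identical stretches, so that the split of signal between them is uncertain. GTF2IRD1 differed from the rest in the number of its sites, with 14 summits along 148700 bp. Its strongest was a broad interval of 7081 bp inside the gene, against a median width of 688 bp over all peaks, with a fold of 11.2 (8.92 to 13.9), whereas the strongest at its start reached 3.94.

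The highest TAF signal was at a TFIID gene. TAF2, a subunit that contacts the initiator, had 269 fragments over a control level of 11.3, a fold of 22.0 (19.4 to 24.8), with the summit 207 bp beyond its higher-coordinate end in a peak shared with DSCC1. TAF2 lies on chromosome 8, and the control level at the 8 other summits along it was 9.10 to 10.9, above the median of 5.92 over all peaks. The part of these levels in the folds was not tested. TAF9, a histone-fold subunit that TFIID shares with the coactivator SAGA, had 17.9 (14.8 to 21.4) at position -98, in a peak shared with AK6 and RAD17. TAF8 and TAF12 both had 13.5 (11.02 to 16.3 and 11.1 to 16.2). Of the 13 TFIID genes, 12 had a site, with a median of 10.7 and a low end at TAF13, at 5.18 (3.87 to 6.80). Of the 17 paralogs of TFIID genes, 2 had a site: TAF4B, with 10.7 (8.33 to 13.5), and TAF9B, with 4.35 (2.96 to 6.19).

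The remaining TAF genes were not classed here as TFIID genes. TAF15, an RNA-binding protein of the FET family, had 18.8 (16.0 to 22.0) with the summit at -233 bp from its lower-coordinate end, outside the gene. All 4 SL1 genes had a site at the start, from TAF1B at 14.97 (12.3 to 18.0; 112 fragments over 6.55) and TAF1D at 12.9 to TAF1A at 8.17 and TAF1C at 2.72 (1.78 to 3.996; 24 fragments over 8.19). TAF1B and TAF1C lay far apart although they encode subunits of 1 complex, and their intervals did not overlap. The SAGA-type genes TAF5L and TAF6L had 11.8 and 9.98.

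The Mediator modules overlapped widely in signal. Head genes had a median fold of 10.96 over 6 of 7 genes with a site, middle genes 6.73 over 9 of 9, tail genes 5.74 over 5 of 5, and kinase-module genes 6.06 over 4 of 4. Subunits placed in the head or the tail by different structures had 7.35 over 4 of 4, and the scaffold gene MED14 had 6.56. The ranges of head and middle genes overlapped almost completely, from 5.58 to 16.1 and from 3.19 to 18.1, and module assignments differ between structural reports.

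The strongest MED site was at MED19, a subunit of the middle module, with 177 fragments over a control level of 8.84 and a fold of 18.1 (15.5 to 20.9) at position 110, in a peak shared with TMX2. MED20, a head subunit, had 16.1 (13.4 to 19.2) at position -390, upstream of the window printed above and shared with BYSL, a ribosome-biogenesis gene. MED21, a middle subunit, had 14.6 (11.9 to 17.7), and the head subunits MED11 and MED8 had 13.1 (10.7 to 16.0) and 13.0 (10.3 to 16.1). At the other end were MED23, a tail subunit, with 3.05 (1.96 to 4.54), MED9, a middle subunit, with 3.19 (2.05 to 4.75), and MED12, which activates the Mediator kinase, with 3.94 (2.56 to 5.83). Each of these rested on 22 or 23 fragments, and their 3 intervals overlapped. MED30, on chromosome 8, had a fold of 7.30 over the highest control level of the set, 17.4.

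Most of the strongest sites were promoter sites. For the 76 members whose start is listed in the RefSeq promoter table, a summit lay within 1 kb of a start at 19 of 21 GTF genes (90.5%), 18 of 33 TAF genes (54.5%) and 19 of 22 MED genes (86.4%), or 56 of 76 in all (73.7%), against a background of 60.1%. Without the near-identical copies the TAF share was 18 of 20 (90%), and that of all members 88.5%, while the background kept the copies of other families. Among members with a listed start and a site, the strongest peak was the one at the start in 52 of 60 (86.7%), beside 73.3% of all such genes. The 8 with the summit of the strongest peak elsewhere were GTF2IRD1, GTF2H4 and GTF3A, described above, and TAF4, MED12L, MED16, MED24 and MED13L. By place of the summit, the 60 start peaks of members had a median fold of 7.74. The 74 peaks with summits inside genes, away from both ends, had 3.69. Over the whole list the values were 7.37 at starts and 3.69 inside genes.

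The summits at starts fell on both sides. Of the 52 strongest peaks at starts, 1 had its summit within 90 bp of the start (GTF2A2, at -7), 22 had it between 91 and 200 bp downstream, and 19 between 91 and 400 bp upstream. As shares these were 1.92%, 42.3% and 36.5% of the members' peaks, and 9.31%, 31.9% and 31.2% of the peaks of all genes placed in the same way. The bins were drawn after seeing the positions, and the count near the start depends on the edge: within 100 bp there were 4 of 52 (7.69%), beside 12.1% of all genes. Downstream summits were 8 of 17 at GTF, 9 of 17 at TAF and 11 of 18 at MED genes.

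**Figure D2:**
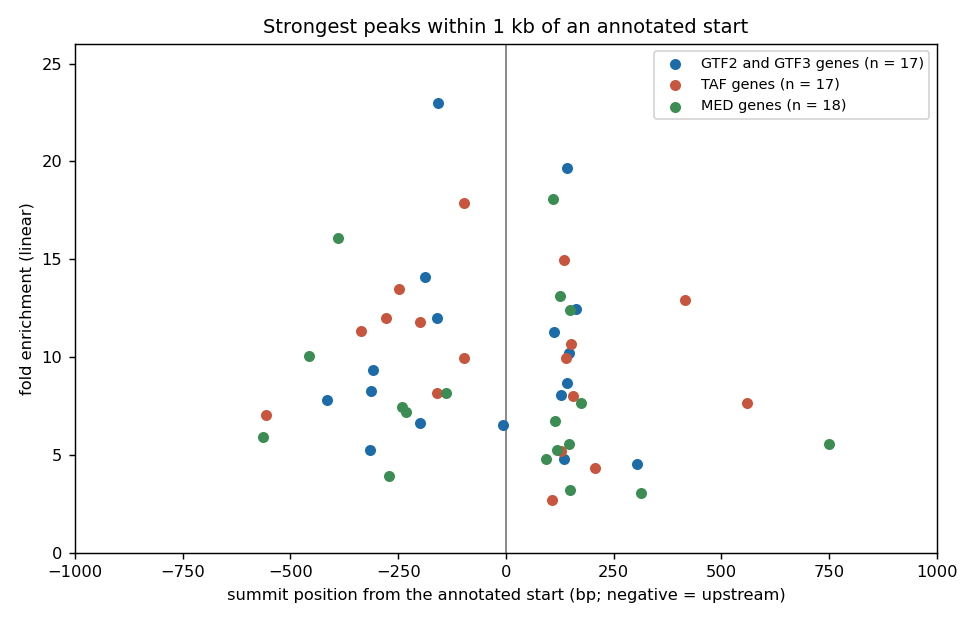
Distance of the summit from the annotated start (horizontal axis, bp, negative upstream) and fold enrichment (vertical axis, linear) for the 17 GTF, 17 TAF and 18 MED genes whose strongest peak had its summit within 1 kb of a start; each point is 1 gene. Of the 52 points, 22 lie between 91 and 200 bp downstream, 19 between 91 and 400 bp upstream and 4 within 100 bp of the start.

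Peaks were counted along each gene as well. The 92 members held 158 summits, 59 at GTF, 46 at TAF and 53 at MED genes. At least 2 summits were found at 34 members (37.0%), beside 34.6% of all genes, and at least 4 at 8 members (8.70%), beside 11.4%. These 8 were mostly long genes: besides GTF2IRD1, TAF2 had 9 along 102068 bp, GTF2F2 had 9 along 164384 bp, MED12L, a paralog of MED12, had 9 along 350990 bp, MED15, a tail subunit, had 6, and GTF2IRD2, TAF4 and MED24 had 4 each. Among all genes over 100 kb, 33.0% had at least 4. The profiles differed in kind: at TAF2 and GTF2F2 the peak at a gene end was the highest, with 22.0 and 8.07 against at most 3.84 and 6.30 elsewhere. At MED15 the start peak of 12.4 (9.95 to 15.2) was followed by an internal peak of 10.2 (8.18 to 12.5), 22897 bp from the nearest listed start, and these intervals overlapped. At MED12L no summit lay within 1 kb of the start. TAF4 had its strongest fold inside the gene, 6.22 (4.51 to 8.39), against 3.86 at the start.

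**Figure D3:**
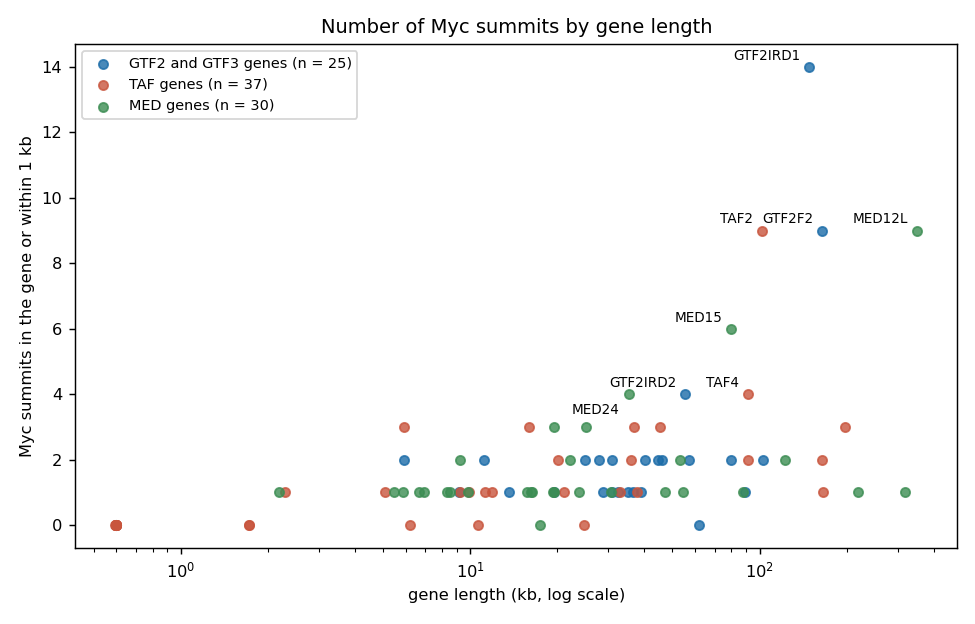
Number of Myc summits in each gene or within 1 kb of it (vertical axis) against gene length (horizontal axis, kb, log scale) for the 25 GTF, 37 TAF and 30 MED genes that were placed; genes with 4 or more summits are named. GTF2IRD1 stands highest with 14, and the points at 0 on the left are the short TAF11L copies.

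Several of the strongest sites lay between the member and a neighbour. The strongest peak also fell in or within 1 kb of another protein-coding gene at 22 of 74 members (29.7%), beside 27.6% of genes with a site, and within 1 kb of the start of another gene at 13 of 74 (17.6%), beside 17.6%. Over all members the median fold was 10.8 for shared sites and 7.43 for unshared ones, and over all genes the values were 9.35 and 7.29. The groups were not alike: the medians were 9.34 and 9.23 at GTF genes, 12.3 and 8.002 at TAF genes, and 10.1 and 6.65 at MED genes. A peak list cannot say which of the neighbouring genes such a site serves.

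The E-box was unevenly spread over the groups, on small counts. CACGTG, searched in the windows of 250 bases before and 50 after the start (it reads the same on both strands), occurred at 7 of 21 GTF genes (33.3%), 5 of 33 TAF genes (15.2%) and 1 of 22 MED genes (4.55%), or 13 of 76 in all (17.1%), beside 10.9% of genes with a listed start. Without the near-identical copies the TAF share was 5 of 20 (25%). The GTF genes were GTF2H1, GTF3C2, GTF3C4, GTF2A1, GTF3C6, GTF2B and GTF2IRD1, the TAF genes TAF9, TAF12, TAF5L, TAF4B and TAF6L, and the MED gene MED13L. Of these 13 genes, 12 had a summit within 1 kb of the start, beside 71.7% of all genes with CACGTG in the window. The exception was MED13L, whose only summit lay at position 1601 with a fold of 4.29 (2.94 to 6.07). Of the 63 members without CACGTG, 44 had one, beside 58.7% of all genes without it. The 63 include the TAF11L copies, none of which had a site or CACGTG, so they lower the share without CACGTG. Without the near-identical copies, a summit lay within 1 kb of the start at 54 of 61 members with a listed start. CACGTG was in the window of 13 of these 61. A gene counted when any of its listed windows held the letters. The 15841 genes with a listed start had 22174 listed starts, and no share was adjusted for the number of windows per gene. A match is a description of the letters and not a bound site.

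Members with the E-box had the higher median fold at the start. The median start fold was 12.1 over the 12 bound members with CACGTG, and 7.56 over the 44 without. In all genes the same medians were 9.03 and 7.92, a smaller difference in the same direction. At GTF genes they were 12.5 with it (from 3.94 at GTF2IRD1 to 22.98 at GTF2H1) and 7.94 without it. At TAF genes they were 11.8 (from 9.98 to 17.9) and 8.002. The ranges overlapped in both groups, and strong sites also stood where the window had no CACGTG: TAF1B at 14.97, MED19 at 18.1 and MED20 at 16.1. Their summits lay outside the windows searched, at positions 135, 110 and -390, so the letters under them were not read. The summits of bound members with CACGTG did not sit on a match found in the windows. Several of those summits, as at GTF3C2 and TAF4B, also lay outside the windows. In each window, the strongest summit within 1 kb lay from 55.5 bases (GTF2A1) to 332.5 bases (TAF4B) from the centre of the nearest match. Among genes with a peak at the start, the median share of G and C in the window was 65.2% in members with the E-box and 59.3% in members without it. In all genes it was 65.3% and 64.7%, and the part of base composition in the difference was not tested.

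**Figure D4:**
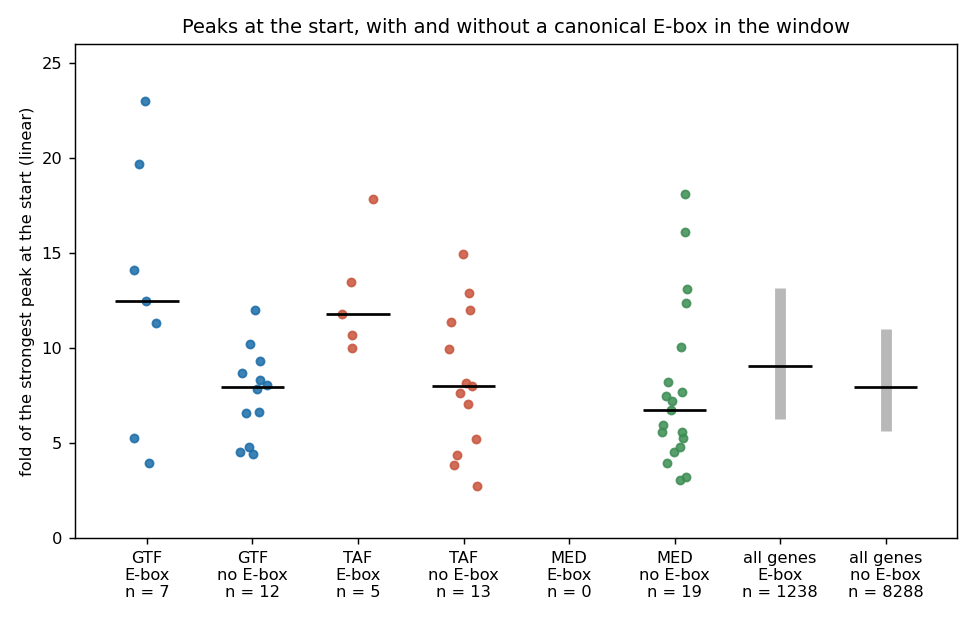
Fold enrichment (vertical axis, linear) of the strongest peak within 1 kb of the start, for genes with and without the canonical E-box in the promoter window; points are genes of the GTF, TAF and MED groups, black lines are medians, and grey bars span the middle quartiles of all genes. The medians are 12.5 and 7.94 at GTF genes, 11.8 and 8.002 at TAF genes, and 9.03 and 7.92 over all genes; no MED gene with the motif had a peak at its start.

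The other motifs searched, on both strands and with overlapping matches allowed, had lower shares over all members than over all genes. The difference was not tested, and the TAF11L copies were included. Genes with more listed windows had more bases to match, and members and all genes were not matched for this. The variant E-box CACGCG (or CGCGTG, its other strand) occurred at 11 of 76 members (14.5%), beside 18.1%. By group it occurred at 5 of 21 GTF genes (23.8%), 4 of 33 TAF genes (12.1%, or 4 of 20 without the copies) and 2 of 22 MED genes (9.09%). The letters CATGTG (or CACATG) occurred at 2 of 76 members (2.63%), beside 11.5%. The TATA-box letters TATAAA (or TTTATA) occurred at 7 of 76 members (9.21%), beside 12.4%. Start peaks of members with CACGCG had a median fold of 8.44, and those without it 7.91.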

How the data were processed

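Per the labels' protocols, HT29 cells were bound to beads, permeabilised, and cut with a protein A/G micrococcal nuclease guided by antibody. Per the submitters' processing notes, the tools named include MACS2 2.1.2 and BWA 0.7.15, with build hg38, beside SAMtools 1.5 and Picard 2.19.0. FastQC 0.11.7, deepTools 3.5.0 and HOMER 4.11.1 were also named. Not given in the sources used here: which control was used, whether libraries were pooled, how duplicates were treated, and the depth. The deposited peak list holds, per peak, the authors' fold (a ratio over the control level), the authors' −log10 p and q values, a deposited score derived from the q value, and the summit offset. The fold was used to describe and rank peaks within this list only.

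Of 47017 peaks, the 47016 on the main chromosomes were used. Their −log10 q was at least 1.30 and their median fold was 4.11. The whole-number pileup and control level were recovered from fold and −log10 p, to within 0.001 for all 47016, and tested on 2000 simulated pileups, of which 100% were recovered. Pileups ran from 14 to 8709, with a median of 29. Fold intervals are exact Poisson 95% intervals of the pileup. They cover counting error only, since PCR copies are not independent molecules. Gene spans, starts and promoter sequences came from RefSeq, GRCh38.p14. A listed start was found for 76 placed members and 15841 genes in all, and the other 16 placed members were measured from either end of the gene.

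The members and lists were chosen with earlier results of these data known. Named are all members without a site, the 5 highest and 3 lowest per group, those with 4 or more summits, and those whose promoter or shared site is described; GTF2F1, GTF2A2, GTF2IRD2B, GTF3C1, TAF1A, TAF1D, MED14, MED16 and MED30 were named after their values were seen. No test was run: groups are given as counts and medians beside all protein-coding genes, with Wilson, Newcombe and binomial intervals. The alternatives were other windows around the gene, starts or ends only, a −log10 q of at least 5, a fold of at least 4, and leaving out wide peaks, shared peaks and near-identical copies. As a look at the labelled cell type, 11 of 12 colon epithelial marker genes and 6 of 8 markers of other cell types had a Myc site. The share of all placed genes was 69.3%, so these short lists cannot identify the cell type. CEACAM5, ALB and DES had none. Expression was not measured. Python 3.11.15, pandas 2.3.3, NumPy 2.4.6 and SciPy 1.17.1 were used.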

Additional observations from a re-analysis of the deposited data

How the results depend on the processing

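No paired analysis was possible because the deposited list has 1 value per peak and none per library; leaving out a library was not possible for the same reason. Of 188 alternative values for 18 results, 170 stayed within the interval of the value reported, 18 moved beyond it, and no called direction reversed. With the gene span alone, the share with a site was 80.0% at GTF genes, 76.7% at MED genes and 67.4% over all members, with a median fold of 7.01, beside 57.8% and 6.89 over all genes. Without peaks wider than 2 kb, the median fold was 7.06 at GTF genes and 7.26 over members, beside 6.31 over all genes, and the share was 40.5% at TAF genes and 69.6% over members. Without peaks shared with another gene, the share was 40.5% at TAF genes, 80.0% at MED genes and 65.2% over members, with a median fold of 7.14, beside 55.9% and 6.96 over all genes. Without near-identical copies, the share was 91.3% at TAF genes and 94.5% over members, the difference in share was 3.70 points for GTF minus TAF and -5.36 for TAF minus MED, and the share bound at the start was 90% at TAF genes and 88.5% over members. The log2 difference in the median fold kept its sign under all 12 alternatives for GTF minus MED (0.02, without wide peaks, to 0.49) and TAF minus MED (0.20, without wide or without shared peaks, to 0.68). For GTF minus TAF it kept its sign under 10 and ranged from -0.36 to 0.23; the other sign came with the gene span alone and without shared peaks. GTF and TAF medians were above that of all genes under all 12, and that of all members under 11, the exception being the setting with starts alone (8.03 beside 8.04). Taking 1 summit per interval changed nothing, since no interval was listed again. Its values could not move, yet they are counted in the 170, and the setting is counted in the 12. Leaving out the copies could not move the MED values either, since no MED gene is among them. Depth per library is not given in the sources used here, and sites of low pileup are limited by it.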

Other observations

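The partners that work with these factors but fall outside the symbol rule also carried Myc sites. Of 27 such genes, 25 had a summit in or within 1 kb of the gene, with a median strongest fold of 8.05, beside 69.3% and 7.84 over all placed genes. The kinases of the Mediator kinase module, CDK19 and CDK8, had 16.1 (exact Poisson 95% interval of the pileup 13.8 to 18.6) and 14.5 (12.1 to 17.2), above all 4 MED genes of that module, which reached at most 9.53, and their cyclin CCNC had 5.58 (3.89 to 7.77). TBP, the TATA-binding protein itself, had 10.6 (8.44 to 13.2), close to the TFIID median of 10.7. The TFIIH genes outside the rule ranged from ERCC3, at 6.21, to CCNH, at 11.5.

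On the RNA polymerase III side, the TFIIIB genes BDP1 and BRF1 had 12.2 and 11.8, near the TFIIIC median of 11.6, while BRF2, which serves a small class of promoters, had no site and its nearest summit lay 36985 bp away. All 5 genes of SNAPc, which activates small nuclear RNA genes, had a site, from 7.15 to 12.5. RRN3, which recruits RNA polymerase I to SL1, had 16.4 (13.4 to 19.9), the highest of the list. TBPL2, a paralog of TBP known for its role in oocytes, was the other gene without a site, with a summit 2189 bp away.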
